A study of Paxillus involutus with 25 samples.

Results

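The genes described here are 150 protein-coding genes of Paxillus involutus whose RNA level differed most between replicate cultures grown with the mineral phlogopite. They were selected on measured values. Counts were scaled to a library total of 1000000 (CPM), and the 200 genes with the highest mean CPM were set aside. Genes were then eligible if their mean over all 25 cultures was at least 10 CPM and if the mean on complete medium lay between 0.5 and 2 times that on K-depleted medium. Of 18032 gene IDs in the table, 7784 were eligible, and the 150 with the highest standard deviation (SD) of log2(CPM + 0.5) over the 5 phlogopite cultures are the members. Their spread with phlogopite is therefore a description and is given without a test.

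All cultures were mycelium of a single strain, ATCC 200175, so the measurements describe 1 genotype. The 5 groups had 5 biological replicates each. Complete MMN agar served as the positive control, and K-depleted MMN agar, made without KH2PO4, as the negative control. The remaining groups had flakes of a mineral, muscovite, phlogopite or K-vermiculite, added to K-depleted MMN agar, so 4 of the groups shared the missing salt, which supplies phosphate as well as potassium. Fungus and flakes lay on cellophane, and plugs from 7-day-old colonies grew for 21 days in the dark at 25 °C. The study asked how the fungus obtains potassium from different sheet silicates, and the members bear on how alike its replicate cultures were.

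Paxillus involutus is a basidiomycete that forms ectomycorrhiza, in which hyphae ensheath tree roots and pass mineral nutrients to the tree in return for sugar. Potassium is the main cation of the fungal cell, where it balances charge, sets turgor and activates enzymes, and sheet silicates hold it between their layers. Filamentous fungi also make secondary metabolites through enzymes such as polyketide synthases, which join short acyl units into carbon chains. The genes for such pathways often lie side by side and are transcribed together. Of the members, 1 carries a gene symbol, pks3, the usual symbol for a polyketide synthase, while the other members are known by ID alone and are given no role.

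The libraries held between 21.0 and 41.2 M counts (M, 1000000). The lowest count of any member in any library was 28. At each member's mean count over the 5 phlogopite cultures, counting alone would give a median SD of 0.04 on the log2 scale. The highest such value was 0.08, and a single culture with few counts would carry more. Over all cultures the members' median level was 44.3 CPM, with a range from 10.1 to 552 CPM, against a median of 50.6 CPM for the eligible genes. Their median length in the reference was 1717.5 bases, against 1727 bases for the eligible genes. The P-values given further on test differences between groups. In the main fits the error is the variation between biological replicates, 5 per group, estimated jointly over the 4 groups outside phlogopite.

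With phlogopite, the members' SD of log2(CPM + 0.5) ran from 0.49 to 1.66, and 24 members reached 1 or more. The median member had an SD of 0.69, against 0.12 for the median eligible gene. The last members inside the limit were PAXINDRAFT_116492 with an SD of 0.496, PAXINDRAFT_169061 with 0.495 and PAXINDRAFT_167656 with 0.495. Just outside were PAXINDRAFT_15134 with 0.494, PAXINDRAFT_140266 with 0.492 and PAXINDRAFT_161155 with 0.491, so no gap separated members from the rest. The limits on abundance and on the ratio of the media also kept out genes of the same spread. Among the 200 most abundant genes, 9 had an SD at or above that of the last member, and among 861 genes outside the ratio limits, 68 did.

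A principal component analysis of the members over the phlogopite cultures placed 85.9% of the variance on 1 axis and 9.41% on the next. Cultures 1 and 2 scored -0.52 and -0.53 on the first axis, culture 3 scored 0.11, and cultures 4 and 5 scored 0.44 and 0.49. By the sign of its loading on this axis, each member was put in a larger set of 121 genes, with positive loadings, or a smaller set of 29 genes, with negative loadings. In the larger set, culture 5 held the highest value for 108 genes and culture 4 for the other 13. The lowest value of the larger set lay in culture 2 for 64 genes, in culture 1 for 53, in culture 3 for 3 and in culture 4 for 1. In the smaller set, culture 4 held the lowest value for 26 of 29 genes. Its highest value lay in culture 2 for 13 genes, in culture 1 for 10, in culture 5 for 5 and in culture 3 for 1. The sets are thus defined by the same values that chose the members.

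**Figure D1:**
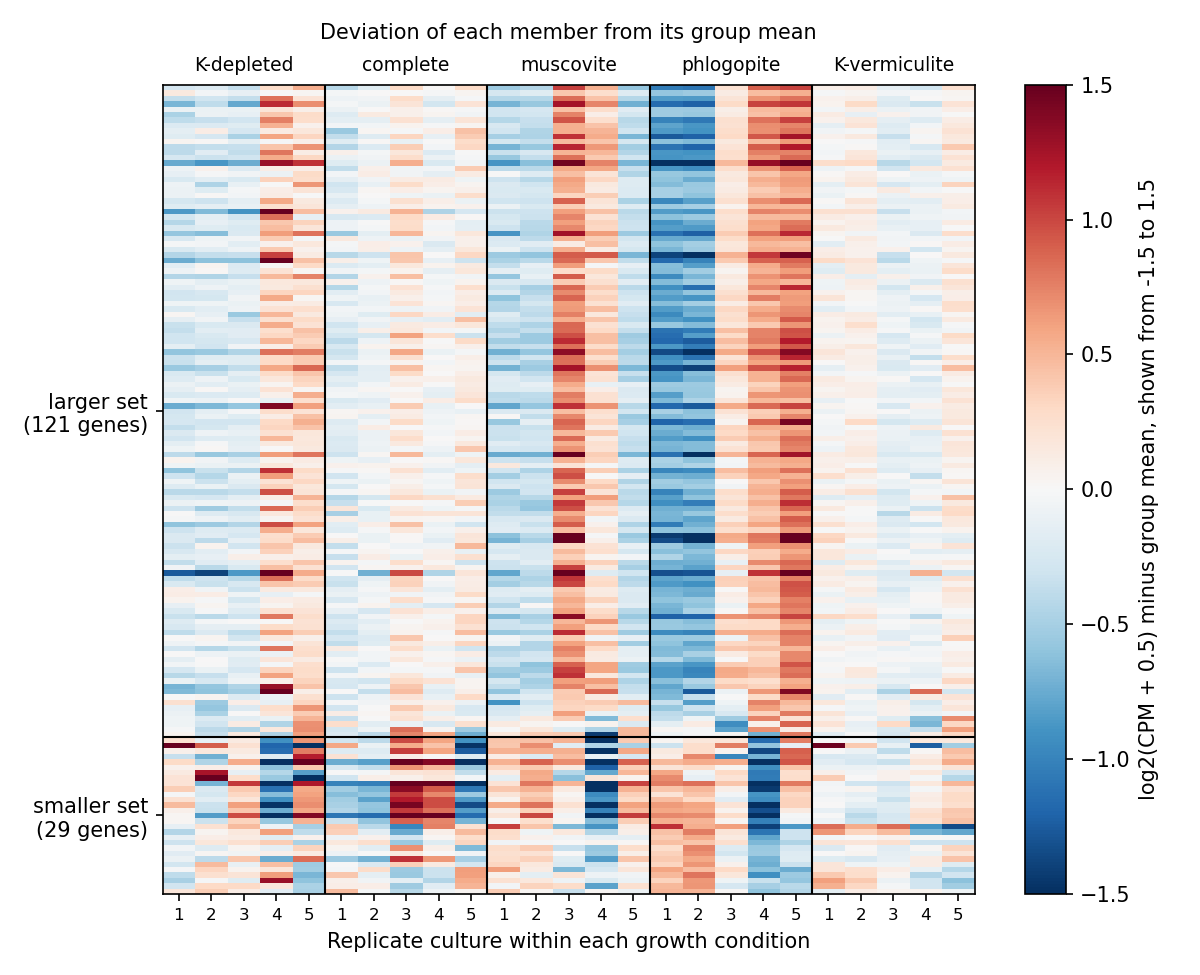
Deviation of log2(CPM + 0.5) from the mean of its group for each of the 150 members (rows, ordered by set and by loading on the first phlogopite axis) in each of the 25 cultures (columns, replicates 1 to 5 of each group). Red is above the group mean and blue below it, with the colours cut at 1.5 in either direction; cultures 4 and 5 of phlogopite and culture 3 of muscovite are red over most of the larger set, and the K-vermiculite block is the palest.

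PAXINDRAFT_65363, of the larger set, had the widest spread of all members. Its level in phlogopite cultures 1 to 5 was 52.8, 47.1, 237, 417 and 552 CPM. Cultures 1 and 2 were low and the other cultures were high, with no value between. On K-depleted medium it stood at 36.5, 33.4, 36.7, 152 and 132 CPM, so there cultures 4 and 5 were the high ones. With muscovite the values were 49.4, 59.1, 249, 153 and 56.8 CPM, with culture 3 highest and culture 4 next. Complete medium gave 112, 119, 185, 108 and 123 CPM, and K-vermiculite gave 148, 152, 92.1, 102 and 136 CPM. In these groups no culture fell to the low level seen in some cultures of the other 3 groups.

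PAXINDRAFT_80575 showed the same order of phlogopite cultures, at 43.4, 39.2, 174, 206 and 368 CPM. Muscovite culture 3 stood far above the rest of its group, whose values were 39.99, 46.1, 186, 60.4 and 41.4 CPM. K-depleted cultures had 39.8, 40.9, 38.8, 55.3 and 60.4 CPM, complete-medium cultures 68.8, 63.9, 69.5, 63.8 and 78.1 CPM, and K-vermiculite cultures 72.6, 64.5, 50.9, 53.5 and 52.5 CPM. Every value in those groups was below phlogopite cultures 3, 4 and 5.

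PAXINDRAFT_5660 had 34.4, 28.8, 131, 191 and 251 CPM with phlogopite. With muscovite it had 36.6, 35.3, 100.7, 102 and 33.0 CPM, so cultures 3 and 4 stood apart from the remaining cultures. Its K-depleted values were 30.5, 32.3, 32.6, 84.7 and 45.1 CPM, again highest in culture 4 and next in culture 5. PAXINDRAFT_90118 resembled PAXINDRAFT_80575, with 37.3, 32.0, 139, 165 and 288 CPM with phlogopite and 30.5, 35.3, 152, 52.7 and 35.8 CPM with muscovite.

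The members with the highest loadings in the larger set were PAXINDRAFT_21726, PAXINDRAFT_50861 and PAXINDRAFT_97355. PAXINDRAFT_21726 had 14.1, 13.7, 34.9, 55.5 and 60.3 CPM with phlogopite and 15.8, 17.0, 47.8, 33.9 and 15.4 CPM with muscovite. PAXINDRAFT_97355 had 29.9, 29.6, 61.5, 85.9 and 95.1 CPM with phlogopite and 35.2, 35.2, 85.2, 64.2 and 35.2 CPM with muscovite. In both, muscovite cultures 1, 2 and 5 lay together, close to phlogopite cultures 1 and 2.

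PAXINDRAFT_50861 was the member with the least spread over the other 4 groups. It had 36.8, 37.6, 60.1, 76.5 and 80.4 CPM with phlogopite and 37.9, 40.1, 60.5, 54.2 and 39.7 CPM with muscovite. Elsewhere its replicates were close: 44.1, 38.6, 36.3, 39.5 and 40.5 CPM in K-depleted cultures, 61.4, 63.4, 63.1, 62.0 and 64.6 CPM in complete-medium cultures and 42.8, 44.7, 42.3, 42.8 and 44.8 CPM with K-vermiculite. The complete-medium level lay above all K-depleted and K-vermiculite values.

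**Figure D2:**
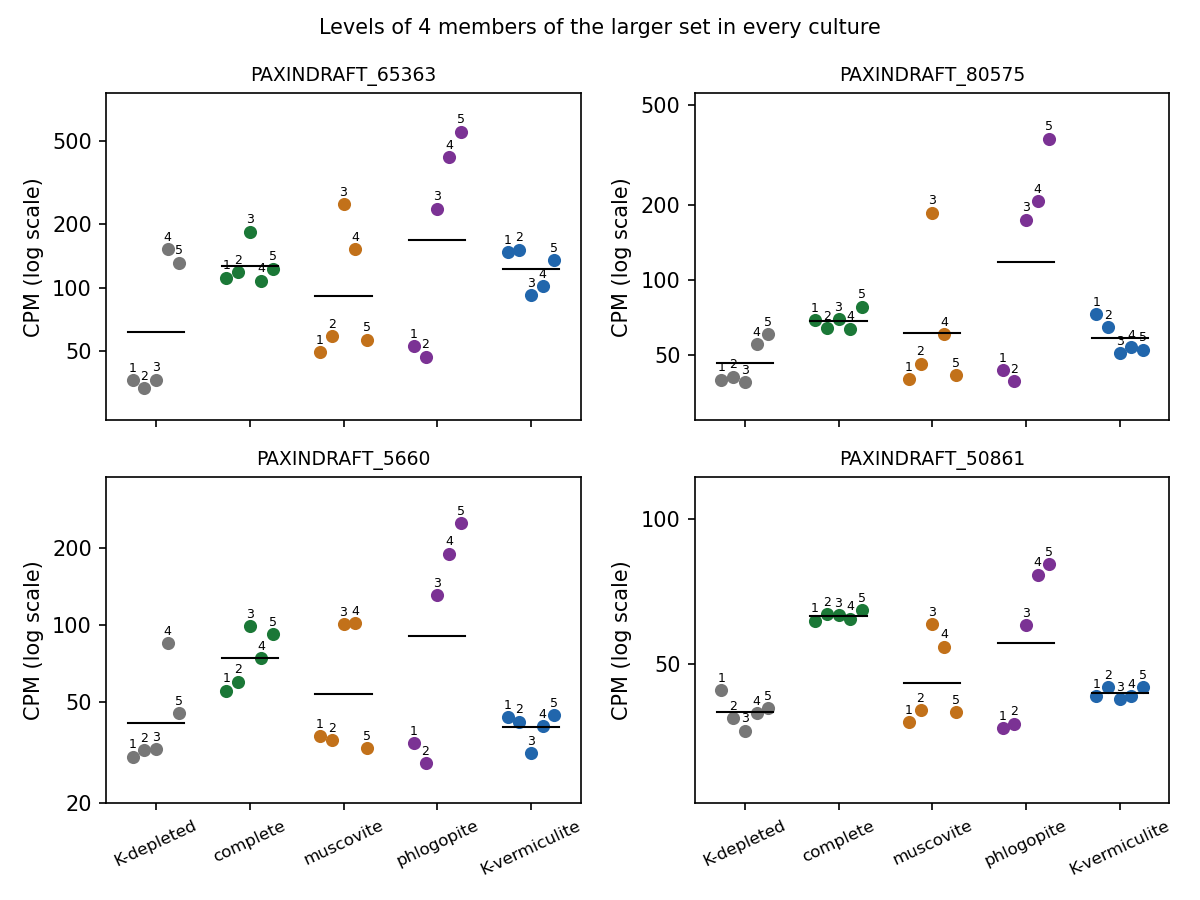
Level in CPM (log axis) of 4 members of the larger set in every culture; points are cultures with their replicate number and lines are geometric means of the 5 cultures. Phlogopite cultures 1 and 2 sit low and 3, 4 and 5 high in each panel, and muscovite culture 3 is the highest or next to highest of its group.

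In the smaller set the widest spread was in PAXINDRAFT_20962 and PAXINDRAFT_99026. PAXINDRAFT_20962 had 17.6, 18.4, 13.7, 1.06 and 17.9 CPM with phlogopite and 9.74, 14.8, 12.1, 1.04 and 17.3 CPM with muscovite. A single culture, number 4, was low in both groups. On K-depleted medium it had 7.38, 3.72, 13.8, 1.48 and 15.3 CPM, with culture 4 again the lowest. Complete-medium cultures split differently, at 4.34, 4.24, 41.3, 30.5 and 2.35 CPM, and there cultures 3 and 4 were the high ones. K-vermiculite cultures had 19.4, 16.1, 16.04, 22.3 and 28.5 CPM, and none of them was low.

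PAXINDRAFT_99026 followed the same cultures. It had 34.2, 36.0, 35.6, 3.81 and 47.1 CPM with phlogopite, 26.9, 34.8, 30.4, 1.89 and 34.8 CPM with muscovite and 16.4, 9.66, 19.9, 2.99 and 41.4 CPM on K-depleted medium. Complete medium gave 12.3, 11.6, 80.4, 54.8 and 5.83 CPM, and K-vermiculite gave 57.2, 54.0, 50.7, 73.1 and 94.8 CPM. The lowest K-vermiculite value was above every K-depleted and muscovite value.

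The smaller set was not uniform. Its highest loadings belonged to PAXINDRAFT_176916, PAXINDRAFT_94790 and PAXINDRAFT_167656, which stepped down from phlogopite cultures 1 and 2 to cultures 4 and 5. PAXINDRAFT_176916 had 486, 488, 346, 225 and 252 CPM. PAXINDRAFT_94790 had 47.5, 53.9, 28.2, 23.9 and 25.4 CPM, and PAXINDRAFT_167656 had 203, 253, 155, 128 and 108 CPM. In these 3 genes culture 5 was as low as culture 4 or nearly so, whereas in PAXINDRAFT_20962 and PAXINDRAFT_99026 culture 5 was at the level of cultures 1 and 2.

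The members were then examined in the 4 groups that the rule had not used for spread. They were also more variable there than the median eligible gene. With muscovite, the members' median SD of log2(CPM + 0.5) was 0.49 against 0.12 for eligible genes, and 143 of 150 members (95.3%) were among the 10% of eligible genes with the highest SD. On K-depleted medium the medians were 0.34 and 0.11, and 108 members (72.0%) were in that top 10%. Complete medium had 0.21 and 0.10 with 83 members (55.3%), and K-vermiculite had 0.15 and 0.09 with 74 members (49.3%). By construction 10% of eligible genes are in the top 10% of each group. These are counts over genes, which are not replicates, so no P-value is attached.

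The ratio of the members' median SD to that of the eligible genes fell in the order phlogopite (5.83), muscovite (4.27), K-depleted (2.97), complete (2.01) and K-vermiculite (1.67), where the phlogopite value was fixed by the selection. Of the 150 eligible genes widest with muscovite, 109 were members, compared with 56 on K-depleted medium, 42 on complete medium and 41 with K-vermiculite. In each group these 150 genes were 1.93% of the eligible genes. The highest of the 5 values was at least 2 times the lowest for 94 members with muscovite, 55 on K-depleted medium, 24 on complete medium and 7 with K-vermiculite. With K-vermiculite that was 4.67% of the members and 0.141% of the eligible genes.

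Muscovite was the group of widest spread, among the 4, for 110 members, K-depleted for 24, complete for 13 and K-vermiculite for 3. Muscovite was the widest for 34.5% of all eligible genes. The narrowest group was K-vermiculite for 89 members and for 36.1% of eligible genes. In all 4 groups 46 members were in the top 10%, in 3 groups 40, in 2 groups 41 and in 1 group 22. Among eligible genes 1.17% were in the top 10% of all 4 groups. PAXINDRAFT_116492, next to the limit, was the 1 member in the top 10% of none. It had 11.9, 12.5, 16.7, 24.2 and 25.2 CPM with phlogopite but 13.5, 13.2, 13.3, 15.99 and 14.9 CPM on K-depleted medium and 15.8, 12.8, 16.4, 14.0 and 12.3 CPM with muscovite.

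**Figure D3:**
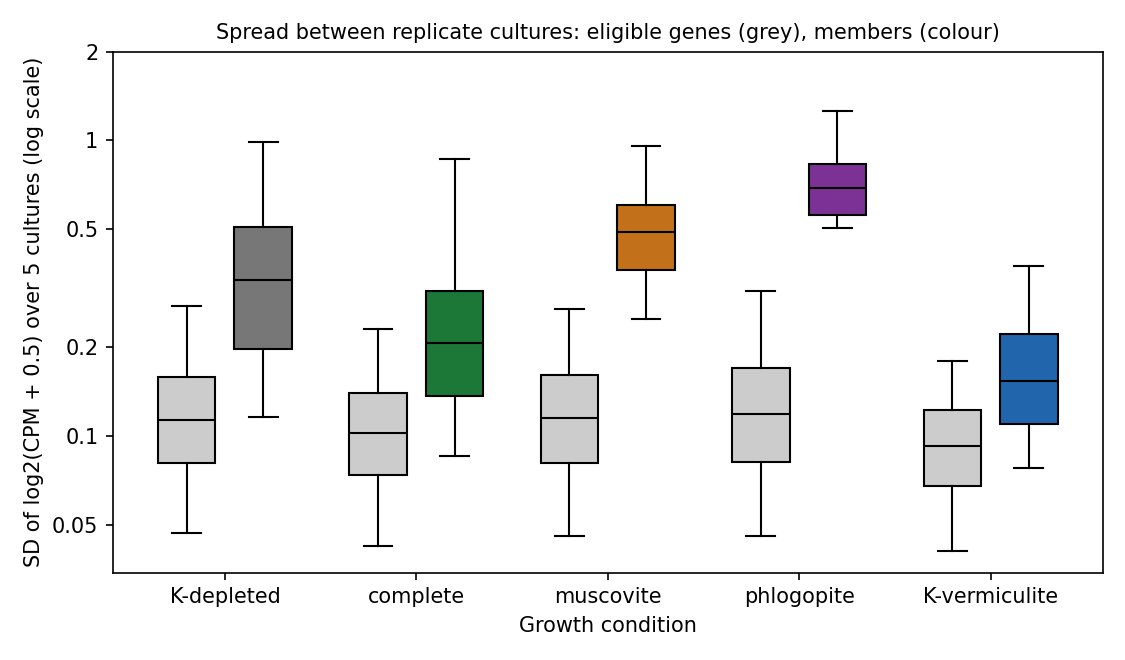
SD of log2(CPM + 0.5) over the 5 replicate cultures of each group (log axis) for the 7784 eligible genes in light grey on the left and the 150 members in the darker box on the right; boxes show quartiles and median, and whiskers run from the 5th to the 95th percentile. The members' box lies above the eligible genes' box in every group, farthest with phlogopite, where it was set by the selection, and least with K-vermiculite.

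The 2 sets differed in where they were wide. The larger set had a median SD of 0.49 with muscovite, 0.32 on K-depleted medium, 0.18 on complete medium and 0.15 with K-vermiculite. The smaller set had 0.51, 0.54, 0.54 and 0.28 in the same groups, so its spread was similar in 3 of them. PAXINDRAFT_99026, PAXINDRAFT_20962 and PAXINDRAFT_13464, all of the smaller set, had the highest mean SD over the 4 groups. PAXINDRAFT_13464 had 1.67, 1.57, 15.7, 13.1 and 1.56 CPM on complete medium and 21.6, 16.1, 18.0, 26.3 and 28.4 CPM with K-vermiculite. PAXINDRAFT_130066 was among the 3 members of least spread in these groups, at 78.7, 81.2, 84.4, 81.8 and 79.0 CPM with K-vermiculite against 58.0, 65.3, 48.7, 25.6 and 35.7 CPM with phlogopite.

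The high cultures of the larger set were shared by most of its genes in the groups outside phlogopite too. With muscovite, culture 3 held the highest value for 107 of 121 genes, and culture 4 lay above the group median for 116. On K-depleted medium culture 4 was the highest for 61 genes and culture 5 for 58. On complete medium culture 3 was the highest for 66 and culture 5 for 44, and with K-vermiculite culture 5 was the highest for 65. For the smaller set, culture 4 was the lowest for 21 of 29 genes with muscovite and for 14 on K-depleted medium, and culture 5 was the lowest for 16 on complete medium.

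The mean deviation from the group mean, taken over the larger set on the log2 scale, was -0.78, -0.78, 0.19, 0.56 and 0.80 in phlogopite cultures 1 to 5. In muscovite cultures 1 to 5 it was -0.35, -0.33, 0.72, 0.27 and -0.32. In K-depleted cultures it was -0.24, -0.23, -0.22, 0.39 and 0.30. Each of these groups thus held 2 or 3 low cultures, at -0.22 or below, and 2 or 3 cultures above the mean. Complete-medium cultures lay between -0.16 and 0.18, and K-vermiculite cultures between -0.13 and 0.12.

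For the smaller set, the mean deviation was 0.43, 0.50, 0.10, -1.06 and 0.03 in phlogopite cultures 1 to 5 and 0.27, 0.36, 0.01, -0.91 and 0.27 with muscovite. K-depleted cultures had 0.04, 0.04, 0.25, -0.46 and 0.13, and complete-medium cultures had -0.16, -0.32, 0.48, 0.43 and -0.43. The cultures low in the smaller set were therefore not simply the ones high in the larger set. Muscovite culture 3 and phlogopite culture 5, the highest for the larger set, were near the mean for the smaller set, and complete-medium culture 3 was high for both.

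**Figure D4:**
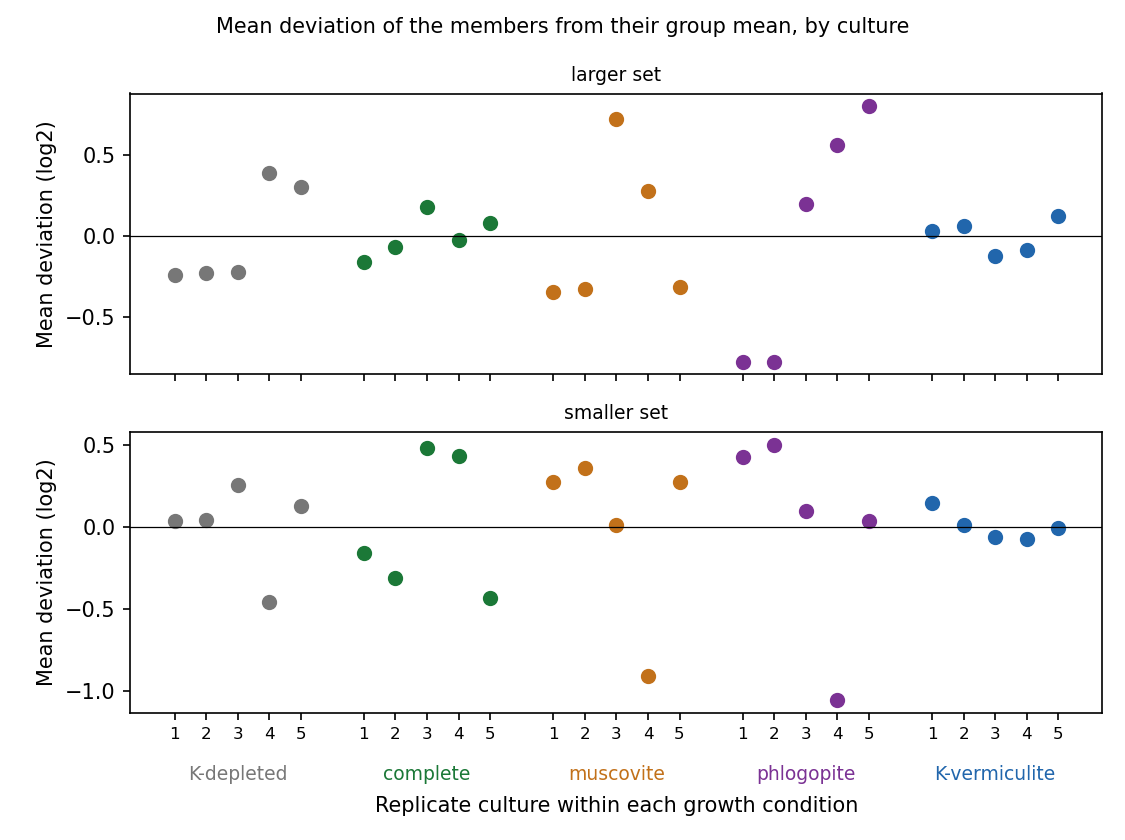
Mean deviation from the group mean (log2 scale) over the 121 genes of the larger set (top) and the 29 genes of the smaller set (bottom), 1 point per culture, replicates 1 to 5 of each group. The larger set spans -0.78 to 0.80 with phlogopite and -0.13 to 0.12 with K-vermiculite, and culture 4 is lowest in the smaller set with phlogopite, muscovite and K-depleted medium.

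A measure of library makeup moved with the larger set in some groups. The 10 most abundant genes took 7.86%, 7.48%, 7.99%, 6.21% and 6.23% of the counts in phlogopite cultures 1 to 5. With muscovite the shares were 9.92%, 9.63%, 6.77%, 8.56% and 8.63%, and on K-depleted medium they were 9.51%, 8.41%, 7.78%, 6.48% and 7.09%. The lowest shares were in phlogopite cultures 4 and 5, muscovite culture 3 and K-depleted cultures 4 and 5, which were also highest for the larger set. On complete medium the lowest share was 6.38%, in culture 5, whereas culture 3, highest for the larger set, had 9.99%. In K-vermiculite cultures 1 to 5 the shares were 12.5%, 10.6%, 10.1%, 8.76% and 8.70%, and culture 5, highest for the larger set, had the lowest share while culture 4, below the mean, had the next lowest. Phlogopite culture 3 had the highest share of its group and lay above the mean of the larger set. The part of this share in the result was not tested. Library totals did not follow the same order: phlogopite cultures 1 to 5 had 27.1, 33.6, 28.9, 33.0 and 24.8 M counts.

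Co-variation was described over the 20 cultures outside phlogopite, as Pearson's r of deviations from the group mean. The points share libraries and group means, and no P-value is given. Within the larger set the median r over pairs of genes was 0.78 and 97.7% of pairs had r above 0, while over all pairs of eligible genes the median was 0.05. Within the smaller set the median was 0.21, and between the sets it was -0.20. Without the muscovite cultures the medians were 0.60 within the larger set, 0.08 within the smaller set and -0.05 between the sets. Of the larger set, 56 genes had r above 0.9 with the mean deviation of the set, and 116 had r above 0.5. Among the 7634 eligible genes that are not members, 13 (0.170%) had r above 0.9 with it.

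A difference in spread among the 4 groups outside phlogopite was tested gene by gene, with limma on the absolute deviations from the group mean. It was called for 20 members at an adjusted p below 0.05, of which 19 were in the larger set, and for 181 of the 12732 genes tested, which is 1.42%. At an unadjusted p below 0.05 there were 105 members, and 15.7% of all genes tested. The lowest adjusted limma P-value among members, 9.92e-05, belonged to PAXINDRAFT_156907 and PAXINDRAFT_50861. PAXINDRAFT_156907 had 131, 109, 306, 249 and 114 CPM with muscovite and 156, 154, 146, 145 and 169 CPM with K-vermiculite. Its muscovite cultures 3 and 4 stood above all K-vermiculite cultures, and the remaining muscovite cultures stood below them.

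Against K-depleted medium alone, 7 members were wider with muscovite at an adjusted limma p below 0.05, all in the larger set, and 0 were narrower. Over all genes tested 0.416% were wider and 0.416% narrower. For complete medium and for K-vermiculite against K-depleted medium the limma test called 0 members, with 26 and 30 members at an unadjusted p below 0.05. Over all genes tested it called 0.118% and 0.566%, with 11.3% and 11.4% at an unadjusted p below 0.05. On simulated data this form of the test called too many genes. With deviations from the group median, a form chosen after seeing the data, limma called 0 genes of any kind. In that form 21 members among 198 genes (1.56% of those tested) had an unadjusted limma p below 0.05. The calls of unequal spread rest on that choice. With deviations from the mean, limma called 12 members without complete-medium culture 4 or muscovite culture 3, and 13 without K-vermiculite culture 1, 2 or 3. Over all genes it called 140 and 199 in the former omissions and 118 to 128 in the latter. It called 34 to 38 members without K-depleted culture 3 or 5 or without muscovite culture 1, 2 or 5. There it called 291 to 418 of all genes, against 181 with no library left out.

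The gene pks3 belongs to the smaller set. It stood at 51.5, 54.6, 41.2, 14.0 and 52.4 CPM with phlogopite and at 48.8, 53.2, 40.5, 11.9 and 53.2 CPM with muscovite, with culture 4 low in both. K-depleted cultures had 42.4, 27.9, 43.0, 14.8 and 48.5 CPM, and complete-medium cultures had 21.3, 19.0, 79.8, 59.1 and 14.4 CPM. K-vermiculite cultures lay close together, at 47.5, 49.3, 41.6, 46.8 and 55.5 CPM. The groups overlapped throughout, and edgeR gave no called difference: the log2 fold change was 0.42 ± 0.47 (SE) for K-vermiculite against K-depleted medium (adjusted p 0.477), 0.25 ± 0.47 for muscovite against K-depleted medium (adjusted p 0.827) and 0.18 ± 0.46 for K-vermiculite against muscovite (adjusted p 0.794). Without muscovite culture 4 the last of these was -0.06 (edgeR adjusted p 0.937).

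Likeness to pks3 was measured, after its values had been seen, as Pearson's r of the deviations over the 20 cultures outside phlogopite. The 9 eligible genes most like it were all members of the smaller set: PAXINDRAFT_100347 (r 0.988), PAXINDRAFT_20962 (r 0.979), PAXINDRAFT_99026 (r 0.975), PAXINDRAFT_97715, PAXINDRAFT_103100, PAXINDRAFT_103161, PAXINDRAFT_14830, PAXINDRAFT_103273 and PAXINDRAFT_13464 (r 0.954). In all, 23 eligible genes had r above 0.9 with pks3, of which 12 were in the smaller set and 1, PAXINDRAFT_100315, in the larger set. The remaining 28 genes of the smaller set divided into 12 with r above 0.9 and 14 with r below 0.5, of which 9 had r below 0. PAXINDRAFT_100347 shows the pattern at 14.2, 13.2, 54.8, 39.9 and 7.62 CPM on complete medium and 30.9, 36.7, 24.3, 4.08 and 31.9 CPM with muscovite, high and low in the same cultures as pks3.

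**Figure D5:**
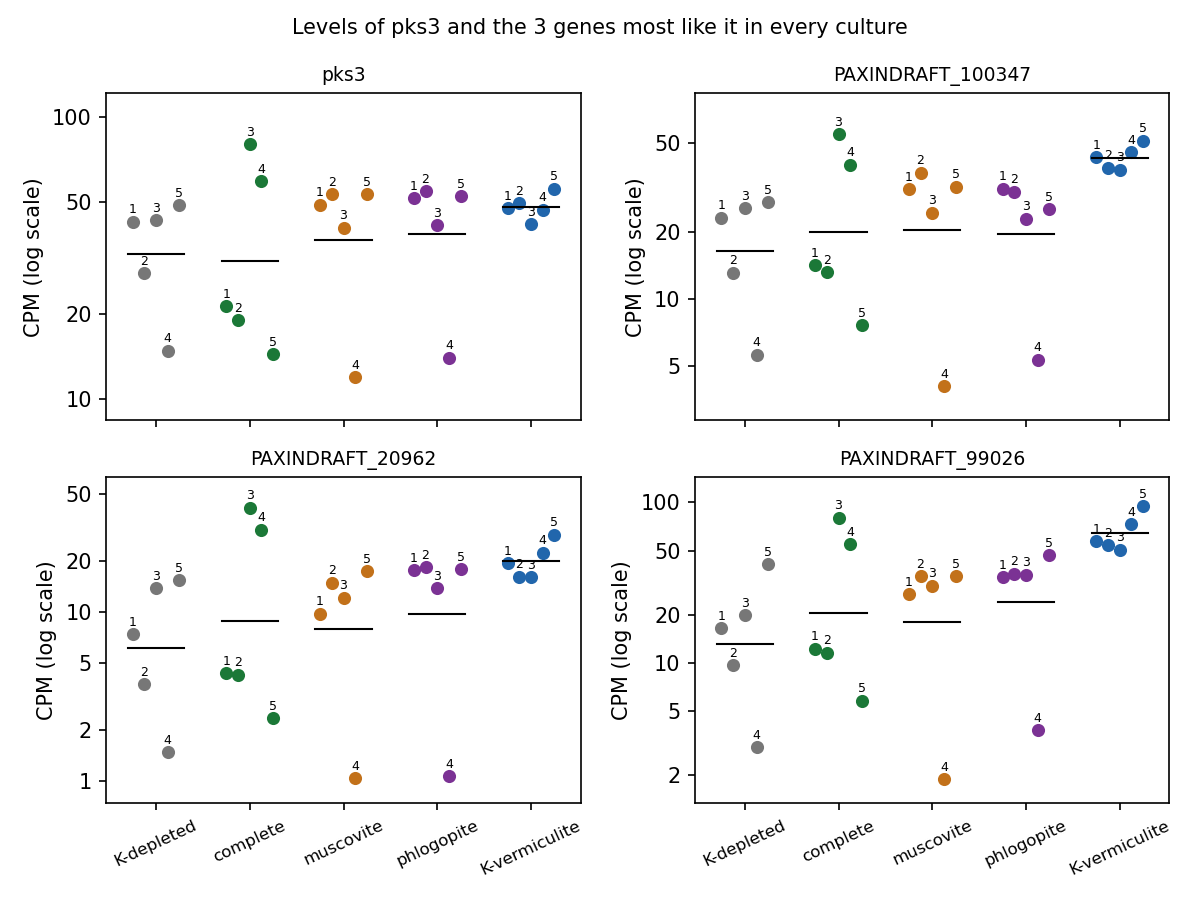
Level in CPM (log axis) of pks3 and of the 3 genes most like it in every culture; points are cultures with their replicate number and lines are geometric means of the 5 cultures. Culture 4 is lowest with phlogopite, muscovite and K-depleted medium, and cultures 3 and 4 are highest on complete medium. The K-vermiculite cultures lie closer together than those of the other groups.

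Differences in level between groups were tested with edgeR on the 20 libraries outside phlogopite, since the spread that chose the members would otherwise enter the estimate of error. Complete medium was not tested against K-depleted medium, because the rule used the ratio of those means. A gene was called at an adjusted p below 0.05 over all 12732 genes tested. Comparisons against K-depleted medium share those 5 cultures and are not independent of each other. As a description, the mean CPM was above the K-depleted mean for 133 members with phlogopite, 125 with muscovite, 124 with K-vermiculite and 124 on complete medium. No share over all eligible genes is given beside these counts, so they are not read as particular to the members. The phlogopite count also comes from the cultures that chose the members.

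K-vermiculite and muscovite differed in 22 members, of which 13 were higher and 9 lower with K-vermiculite. Over all genes tested the called share was 39.9%, with 19.5% higher and 20.4% lower, so the members' share of 14.7% was below that background. Among eligible genes the called share was 41.5%. The members' wide spread with muscovite enters the error of this comparison, and its part in their lower share was not tested. In the larger set 16 of 121 were called and in the smaller set 6 of 29. The median log2 fold change of the members was 0.10, against 0.00 for all genes tested. Called without overlap of the groups were 8 of 150 members, and 25.5% of all genes tested. Without muscovite culture 5, or without K-vermiculite culture 5, edgeR called 14 members, and 4574 and 4509 of all genes in that order.

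PAXINDRAFT_117764, of the larger set, rose most among those without overlap. It had 21.2, 16.8, 22.7, 11.2 and 22.8 CPM with K-vermiculite and 9.02, 8.43, 8.16, 8.48 and 6.95 CPM with muscovite. The log2 fold change was 1.17 ± 0.21 (SE), with an edgeR adjusted p of 0.000202. PAXINDRAFT_167648 rose by 0.83 ± 0.28 (edgeR adjusted p 0.0257) and PAXINDRAFT_89314 by 0.78 ± 0.27 (edgeR adjusted p 0.0281). Their lowest K-vermiculite values, 52.4 and 152 CPM, were above their highest muscovite values, 51.3 and 139 CPM. PAXINDRAFT_167648 lost its call without muscovite culture 3, muscovite culture 4 or K-vermiculite culture 5, where the edgeR adjusted p reached 0.0826. PAXINDRAFT_89314 lost its call without any 1 of muscovite cultures 2, 4 and 5 and K-vermiculite cultures 4 and 5, and when all 25 libraries were fitted, at edgeR adjusted p-values up to 0.0735.

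In the other direction PAXINDRAFT_94790, of the smaller set, had 29.0, 24.8, 19.4, 16.1 and 13.7 CPM with K-vermiculite and 55.5, 72.3, 69.2, 32.7 and 67.8 CPM with muscovite. Its log2 fold change was -1.57 ± 0.26 (edgeR adjusted p 0.000153). PAXINDRAFT_165507 had 257, 254, 266, 182 and 182 CPM with K-vermiculite and 338, 347, 353, 364 and 355 CPM with muscovite, a log2 fold change of -0.66 ± 0.18 (edgeR adjusted p 0.00637). Its muscovite SD on the log2 scale was 0.04, in contrast to 0.52 with phlogopite, where it had 506, 494, 440, 231 and 271 CPM. PAXINDRAFT_99731 fell by 0.61 ± 0.16 on the log2 scale (edgeR adjusted p 0.00383), and muscovite culture 3, at 27.2 CPM, held the highest value of both groups.

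Muscovite and K-depleted medium differed in 9 members, of which 7 were higher with muscovite, all in the larger set, and 2 were lower, both in the smaller set. The background over all genes was 3.87% called, with 1.96% higher and 1.91% lower. At an unadjusted p below 0.05 there were 48 members, and 19.6% of all genes tested. Called without overlap were 3 members, and 2.44% of all genes tested. The median log2 fold change of the members was 0.25, against 0.00 for all genes tested, and 126 of 150 were above 0. Scaled by library totals rather than TMM, 4 of 7 called members were higher (57.1%, against 77.8%).

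Without overlap, PAXINDRAFT_31645 had 31.6, 30.8, 56.6, 49.0 and 34.4 CPM with muscovite and 29.2, 27.0, 24.6, 29.2 and 30.6 CPM in K-depleted cultures, a log2 fold change of 0.54 ± 0.13 (edgeR adjusted p 0.0237). PAXINDRAFT_103737 had 13.3, 13.2, 26.2, 26.4 and 13.7 CPM with muscovite and 10.8, 12.0, 9.86, 12.3 and 12.2 CPM on K-depleted medium, a change of 0.72 ± 0.20 (edgeR adjusted p 0.0495). In both genes muscovite cultures 3 and 4 were well above the others, and the remaining muscovite cultures were just above the K-depleted range. PAXINDRAFT_179525, of the smaller set, fell by 0.38 ± 0.10 on the log2 scale (edgeR adjusted p 0.0384), with 45.3, 44.5, 38.3, 25.97 and 40.7 CPM with muscovite and 45.3, 51.9, 49.1, 54.1 and 55.6 CPM on K-depleted medium. The other called gene that was lower, PAXINDRAFT_176916, fell by 0.65 ± 0.16 (edgeR adjusted p 0.0283) with overlapping values. It lost its call in 9 of 18 alternatives, at edgeR adjusted p-values up to 0.0925. These were the omission of K-depleted culture 1, 2 or 3 or muscovite culture 2, 3, 4 or 5, and 2 other fits. Those fits took all 25 libraries, or the 2 groups alone.

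These muscovite calls depended on single libraries. Without K-depleted culture 2, K-depleted culture 3 or muscovite culture 4, edgeR called 0 members, with 37, 39 and 31 at an unadjusted p below 0.05. Over all genes these omissions gave 374, 251 and 288 edgeR calls, against 493 with no library left out. DESeq2, with none of the 20 libraries left out, called 19 members and 801 of 11989 genes. Without K-depleted culture 1 or muscovite culture 3 edgeR called 2 members, and 328 and 555 of all genes. Without K-depleted culture 4 it called 4 members, and 368 of all genes. PAXINDRAFT_103737 lost its call in 14 of 18 alternatives, among them the omission of any K-depleted culture or of muscovite culture 3 or 4, with edgeR adjusted p-values up to 0.209. PAXINDRAFT_179525 lost it in 9, among them the omission of K-depleted culture 2, 3, 4 or 5 or muscovite culture 3, 4 or 5, at adjusted p-values up to 0.221. PAXINDRAFT_31645 lost it in 5, among them the omission of K-depleted culture 2 or 3 or muscovite culture 4, at adjusted p-values up to 0.152.

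K-vermiculite and K-depleted medium differed in 55 members, of which 45 were higher and 10 lower with K-vermiculite. The background was 47.4% called, with 23.3% higher and 24.1% lower. The members' called share of 36.7% was below it in this fit of 4 groups, and their median log2 fold change was 0.34. Among eligible genes the called share was 48.7%, and the part of the members' spread in the difference was not tested. In the larger set 41 genes rose and 4 fell, and in the smaller set 4 rose and 6 fell. The values of the groups did not overlap in 39 of the 55 called members, and in 3949 of the 6036 genes called among all tested. Called without overlap were thus 39 of 150 members, and 31% of all genes tested. With the 2 groups fitted alone, edgeR called 79 of 150 members and 5995 of 12621 genes tested. There the members' share was not below the background.

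PAXINDRAFT_117764 was again the most raised of those without overlap, from 6.29, 5.31, 7.23, 4.72 and 10.9 CPM on K-depleted medium, with a log2 fold change of 1.44 ± 0.21 (edgeR adjusted p 1.90e-05). PAXINDRAFT_170351 had 264, 303, 248, 258 and 398 CPM with K-vermiculite and 88.9, 92.6, 101.3, 196 and 239 CPM on K-depleted medium, a change of 1.01 ± 0.38 (edgeR adjusted p 0.0397). PAXINDRAFT_23360, of the smaller set, had 25.3, 24.4, 26.5, 31.4 and 39.1 CPM against 12.4, 9.93, 17.6, 7.68 and 24.01 CPM, also a change of 1.01 ± 0.38 (edgeR adjusted p 0.0379). Its highest K-depleted value lay just under its lowest K-vermiculite value. PAXINDRAFT_170351 lost its call when all 25 libraries were fitted and without K-depleted culture 1, 2 or 3 or K-vermiculite culture 1, 2 or 5, at edgeR adjusted p-values up to 0.0915. PAXINDRAFT_23360 lost its call without K-depleted culture 1, 2 or 4 or K-vermiculite culture 3, 4 or 5, at edgeR adjusted p-values up to 0.0889.

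The named genes that fell were all of the smaller set. PAXINDRAFT_167656 had 176, 150, 108, 93.4 and 74.8 CPM with K-vermiculite and 199.7, 278, 246, 687 and 184 CPM in K-depleted cultures, a log2 fold change of -1.43 ± 0.34 (edgeR adjusted p 0.0024). K-depleted culture 4 was far above the rest, and every K-depleted culture was above the K-vermiculite range, culture 5 by the least. PAXINDRAFT_165507 fell by 1.28 ± 0.18 on the log2 scale (edgeR adjusted p 1.38e-05), from 431, 601, 633, 688 and 383 CPM on K-depleted medium. PAXINDRAFT_176916 fell by 0.78 ± 0.16 (edgeR adjusted p 0.000637), from 528, 598, 500, 411 and 332 CPM on K-depleted medium to 253, 303, 291, 290 and 268 CPM. No K-vermiculite culture reached the lowest K-depleted value in these genes.

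The 6 genes with the widest phlogopite spread were not called by edgeR in any of these comparisons. For PAXINDRAFT_65363 the log2 fold change of K-vermiculite against K-depleted medium was 0.66 ± 0.50 (edgeR adjusted p 0.295), and for PAXINDRAFT_20962 it was 1.27 ± 0.76 (edgeR adjusted p 0.187). PAXINDRAFT_99026 had 1.84 ± 0.75 in the same comparison (edgeR adjusted p 0.0529), although its K-vermiculite and K-depleted values did not overlap. It was called in 5 alternatives, among them DESeq2, limma-voom and the omission of K-depleted culture 5, where the edgeR adjusted p was 0.0237. Their standard errors were several times those of PAXINDRAFT_50861, 0.09, and PAXINDRAFT_130066, 0.08. PAXINDRAFT_130066 rose by 0.55 ± 0.08 from muscovite to K-vermiculite (edgeR adjusted p 1.92e-05).

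Neighbouring genes were read from the order of the reference annotation. Counted from each member in turn, 14 of 160 eligible neighbours were members (8.75%). Of 10002 eligible neighbours of the other eligible genes, 146 were members (1.46%). The adjacent members formed 7 pairs and no longer run, and 6 of the pairs lay within 1 set, all of them in the larger set. PAXINDRAFT_171820 and PAXINDRAFT_84744 had the widest spread of these pairs, with SDs of 1.11 and 1.10 with phlogopite. PAXINDRAFT_100109 and PAXINDRAFT_100110 had SDs of 0.85 and 0.89. PAXINDRAFT_13465, next to PAXINDRAFT_13464 by ID, was not a member, but it was the second non-member in order of likeness to pks3. Its place in the genome is not given here.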

How the data were processed

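RNA from 25 cultures was sequenced with a stranded TruSeq mRNA kit, per the labels' protocols. The authors used bcl2fastq 2.19, STAR 2.5.2b and HTSeq, per the submitters' processing notes. The deposited values are counts per gene. The genome build, the use of strand in counting and the handling of reads that fit several genes are, in the sources used here, not given, so near-identical genes and antisense overlaps are uncertain.

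CPM was computed from the deposited counts and column totals. Groups came from the labels. The members and lists were chosen with earlier results of these data known. Levels were tested with edgeR 4.0.16 (R 4.3.3; TMM, filterByExpr with minimum count 10 and total 15, robust quasi-likelihood F-test, 12732 genes, Benjamini-Hochberg adjustment). The common coefficient of variation was 11.3%. Spread was tested with limma 3.58.1. Both were tested on simulated data. No pair of replicates agreed within counting noise (chi-square per degree of freedom 10.6 to 92.1).

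The genes named are the 6 of widest phlogopite spread, 3 on either side of the limit, up to 3 called without overlap in each direction of each comparison, 3 per set by loading, the 3 widest and 3 narrowest elsewhere, and pks3. Others were named after their values were seen. All 150 members were found in the RefSeq table, which gives no product names, so no lists by product were run.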

Additional observations from a re-analysis of the deposited data

Results flagged for a closer look

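Within each group of 5 cultures outside phlogopite, the highest or lowest value of 27 named members and of the mean of each set was compared with the rest by Dixon's criterion. A value was singled out when its gap to the nearest other culture was more than 0.71 of the whole range. Chance alone does so for about 1 in 20 groups, and 10 of 116 groups were singled out. That rate is no yardstick here, since many of the genes vary together and some were named for their wide spread. No explanation was tested for any of them.

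Muscovite culture 3 was far above its group for PAXINDRAFT_80575, at 186 CPM, for PAXINDRAFT_90118, at 152 CPM, and for PAXINDRAFT_99731, at 27.2 CPM, all in the larger set. Muscovite culture 4 was far below its group for PAXINDRAFT_99026, at 1.89 CPM, and for the mean deviation of the smaller set, at -0.91 on the log2 scale. On K-depleted medium, culture 4 stood above the others for PAXINDRAFT_5660, at 84.7 CPM, and for PAXINDRAFT_167656, at 687 CPM, and culture 5 did so for PAXINDRAFT_89314, at 362 CPM. Complete-medium culture 3 stood above its group for PAXINDRAFT_65363, at 185 CPM, and for PAXINDRAFT_97355, at 60.1 CPM.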

How the results depend on the processing

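The muscovite against K-depleted count was the least stable. From 9 members it became 19 with DESeq2 and 4 with the replicate number as a block. It became 0 with edgeR when all 25 libraries were fitted (22 members at an unadjusted p below 0.05). It was also 0 with edgeR when the 2 groups were fitted alone (29 members at an unadjusted p below 0.05). Over all genes the main fit called 493 of 12732, DESeq2 801 of 11989 and the block 430 of 12732. The all-library fit called 428 of 12744 and the 2-group fit 193 of 12561. Leaving out 1 library gave 0 to 13 members, and 251 to 646 of all genes. K-vermiculite against muscovite went from 22 to 10 with all 25 libraries and to 14 to 32 with 1 library left out. Over all genes it had 5076 calls in the main fit, 4984 with all 25 libraries and 4509 to 4917 with 1 left out. K-vermiculite against K-depleted medium went from 55 to 36 with all 25 libraries, 61 with DESeq2 and 79 when the 2 groups were fitted alone. In that last fit 5995 of 12621 genes tested were called. Among all genes, 6036 were called in the main fit, 5893 with all 25 libraries and 6136 with DESeq2. The all-library fit takes in the phlogopite spread that chose the members. The spread test went from 20 members to 0 with deviations from the group median and to 12 to 38 with 1 library left out. Over all genes it called 181, 0 and 118 to 418 in the same settings. No gene named as called changed direction. For pks3, K-vermiculite against muscovite went from 0.18 on the log2 scale to between -0.056 and 0.283 with 1 library left out, the lowest without muscovite culture 4.

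The labels do not say that a replicate number marks anything shared, and cultures were not paired by number. Deviations of same-numbered cultures had r from -0.29 to 0.45, with 19 of 50 pairs above 0.1, and 9 of 25 cultures matched their own number best. The median r was 0.054 for same-numbered cultures, against -0.007 for cultures of other numbers. No test was made of this difference or of the number of matches. No 2 groups had r above 0.1 in every pair. K-depleted and phlogopite came closest, at 0.08 to 0.32 with 4 of 5 pairs above 0.1, and muscovite and phlogopite also had 4, within -0.19 to 0.45. The replicate block gave 23, 4 and 56 members in the 3 comparisons, and 5019, 430 and 5946 of all genes.

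Membership and the counts in the top 10% stayed within 1.5 times under every setting tried. Without the ratio limits 103 members were chosen again, with a minimum of 20 CPM 114, and without phlogopite culture 4 124.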

Other observations

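The following members were chosen after their values were seen, for a wide range in a group other than phlogopite. PAXINDRAFT_9569, of the larger set, had the widest range on K-depleted medium, at 4.01, 3.61, 5.43, 82.8 and 15.3 CPM in cultures 1 to 5, so that culture 4 alone was far above the rest. It had 4.13, 4.22, 10.1, 23.9 and 36.0 CPM with phlogopite, below that culture throughout. PAXINDRAFT_171081, of the smaller set, was one of the few members with a wide range with K-vermiculite, at 50.8, 41.6, 50.5, 14.9 and 10.8 CPM, with cultures 4 and 5 low. Its phlogopite cultures 4 and 5 were low as well, at 3.78 and 5.72 CPM against 15.9 to 23.5 CPM in the others.

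PAXINDRAFT_63986, of the smaller set, was highest in K-depleted culture 2, with 19.96, 53.6, 20.8, 11.5 and 5.64 CPM on that medium. Its complete-medium cultures lay between 23.9 and 33.3 CPM. No test was made of these orders.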
